A study of Homo sapiens with 9 samples.

Results

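The genes described here are 10 genes of the NRF2 antioxidant response, followed in IMR90 cells, a strain of human fetal lung fibroblasts with a finite lifespan in culture. They were listed by symbol: NFE2L2, KEAP1, NQO1, HMOX1, GCLC, GCLM, TXNRD1, SRXN1, SOD1 and CAT. Each symbol matched 1 Ensembl gene in the deposited table, so 10 of 10 were found among 64253 gene identifiers, and all 10 passed the filter on low counts that left 16561 genes for testing. RNA was sequenced from 9 libraries in 3 groups of 3, with the letters a, b and c in each group. Control cells received the pLKO.1 lentiviral vector, which the sample labels call empty and the treatment text calls pLKO.1 GFP. Cells of the shRRM2 group received pLKO.1-shRRM2, a hairpin that targets the ribonucleotide reductase subunit RRM2, and are labelled senescent. The shRRM2/shp16 group carried that hairpin together with pLKO.1-shp16, a hairpin against the cell cycle inhibitor p16 (gene CDKN2A), and is labelled as having bypassed senescence. All groups were infected in 2 rounds 24 hours apart, held in puromycin at 3 ug/mL for 7 days and kept in 2% oxygen, at population doubling 30. A p16 hairpin without the RRM2 hairpin is not among the groups, and the labels name 1 hairpin clone per target.

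NRF2, the product of NFE2L2, is a transcription factor that is held at a low level by KEAP1, an adaptor that delivers it to a CUL3 ubiquitin ligase. When oxidants or electrophiles modify KEAP1, NRF2 escapes degradation, enters the nucleus, pairs with a small MAF protein and binds antioxidant response elements. Its targets make and recycle glutathione and thioredoxin, remove quinones, break down haem and supply NADPH. Control of NRF2 is largely at the level of the protein, which RNA counts do not measure. SOD1 and CAT belong to the same defence but are less strictly tied to NRF2.

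The antioxidant response element has the core TGACNNNGC, and the stretches around each match near the start sites of the 10 genes are shown because NRF2 acts through this element. RefSeq promoter windows on GRCh38.p14 (250 bases before to 50 bases after a start site) were found for 8 of the 10 genes, in 11 windows, and not for HMOX1 and SOD1. Searching TGACNNNGC on both strands gave 6 matches in 3 of the 8 genes, KEAP1, GCLM and TXNRD1. The core was held by 13.35% of all 35116 windows and by 4 of these 11. Counted by gene, it was held by 16.06% of all 27305 genes with a window and by 3 of these 8. In the lines below the capitals mark the match, each stretch runs 5′ to 3′ on the strand of its gene, and a match that begins with GC is the core read on the opposite strand.
GCLM: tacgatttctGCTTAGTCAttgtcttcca
KEAP1: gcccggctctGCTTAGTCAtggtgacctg
KEAP1, second match: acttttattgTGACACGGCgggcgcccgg
TXNRD1, downstream start site: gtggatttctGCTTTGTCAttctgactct
TXNRD1, upstream start site: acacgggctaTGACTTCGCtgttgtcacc
TXNRD1, upstream start site, second match: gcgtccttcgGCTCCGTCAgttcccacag

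The GCLM stretch lies at chr1:93909446-93909474 on the minus strand, with its match 34 to 26 bases before the start site. Those of KEAP1 lie at chr19:10502784-10502812 and chr19:10502807-10502835, also on the minus strand. Their matches are 31 to 23 and 54 to 46 bases before the downstream start site of KEAP1. The window of its upstream start site held 0 matches. All 29 bases of each KEAP1 stretch lie in annotated exons, as do all 29 of the TXNRD1 stretch at the downstream start site. For GCLM 11 of 29 do. On the plus strand of chromosome 12, those of TXNRD1 lie at chr12:104286920-104286948, chr12:104215670-104215698 and chr12:104215761-104215789. GCLM and KEAP1 share a run of 13 bases, tctGCTTAGTCAt, and the 9 bases in capitals occur in 36 of all windows (0.1%). A match is a run of letters and not a measured binding site, and no match was found in the windows of NFE2L2, NQO1, GCLC, SRXN1 and CAT. Sequence more than 250 bases before or 50 bases after a start site was not searched. The absence of a match therefore does not show that a gene lacks the element.

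Gene-assigned counts were 15770895 to 24873291 per library, and no pair of replicates matched within sampling noise (chi-square over degrees of freedom 1.41 to 3.00). Whether replicates came from separate cultures is not labelled, so the p-values measure the spread between these libraries, which may be technical. RRM2 was at 485 ± 5.23 CPM in control, 62.1 ± 1.86 in shRRM2 and 177 ± 3.00 in shRRM2/shp16 (mean ± SD, n = 3). CPM values are gene counts scaled to a common library size (edgeR's cpm function with TMM factors). RRM2 thus stood at 12.8% and 36.5% of control, and the cells with both hairpins were less depleted of it. CDKN2A was at 6.02 ± 0.11, 6.50 ± 0.46 and 4.28 ± 0.32 CPM, and the last was 65.8% of shRRM2 (edgeR adjusted p 7.0e-05). RRM2 in shRRM2/shp16 was at 285% of shRRM2. In that comparison the p16 hairpin and the weaker depletion of RRM2 cannot be told apart. Changes given below for the added p16 hairpin are differences between these groups. Fibroblast markers were present throughout (10 of 10 tested), with a summed level of 27160 to 28020 CPM in control, 26560 to 27350 in shRRM2 and 22900 to 23490 in shRRM2/shp16. Single fibroblast markers moved in different directions. In the same order of groups, the means were 12710, 13450 and 9330 CPM for COL1A1 and 5334, 3525 and 2136 for VIM. They were 1722, 1657 and 3631 CPM for COL3A1 and 263, 187 and 709 for PDGFRA. For 6 epithelial markers, of which KRT5 and KRT14 had at most 3 counts in every library, the sums were 132.8 to 135.9, 163 to 168 and 53.0 to 55.3 CPM. Most of each sum was KRT18, with means of 108, 131.5 and 39.2 CPM. The sums of 4 endothelial markers, with CDH5 at most 3 counts, were 64.9 to 70.1, 67.4 to 71.5 and 114 to 122 CPM. Nearly all of each sum was TEK, with means of 65.2, 67.4 and 115 CPM. PECAM1 had means of 0.498, 0.895 and 0.561 CPM, and KDR 1.83, 1.32 and 3.58. The leukocyte markers PTPRC and CD3E had at most 3 counts in every library, CD14 had means of 0.157, 0.536 and 0.345 CPM, and CD68 2.34, 2.23 and 2.08 CPM. LYZ was at 1.36 ± 0.39, 2.54 ± 0.20 and 1.81 ± 0.13 CPM. The share of uniquely aligned reads that fell in no annotated gene was 17.6% to 18.9% in control, 27.7% to 28.8% in shRRM2 and 23.5% to 24.4% in shRRM2/shp16. The part of these shifts in the results on the 10 genes was not tested. In bulk RNA, fewer cells expressing a gene and less RNA of it per cell cannot be told apart.

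Levels of different genes are compared per length, as RPKM (CPM per kilobase, with the gene length that the deposited table implies). In control, SOD1 was the highest of the 10 at 60.4 ± 2.19 RPKM, followed by TXNRD1 at 42.6 ± 0.96 and NFE2L2 at 20.4 ± 0.32. KEAP1 (18.0 ± 0.18 RPKM) and NQO1 (17.7 ± 0.29) overlapped in their libraries and are the only neighbours in the control order that did. HMOX1 stood at 14.3 ± 0.46 RPKM, CAT at 12.4 ± 0.75, GCLM at 6.78 ± 0.31 and GCLC at 3.55 ± 0.24. SRXN1 was lowest at 0.442 ± 0.117 RPKM. Another annotated gene on its strand shares 85.0% of its exon bases. Reads that fit both genes may have been set aside, so the level of SRXN1 may be understated. In shRRM2 the order was the same except that CAT (12.4 ± 0.11 RPKM) stood above NQO1 (11.3 ± 0.16) and HMOX1 (9.34 ± 1.04). In shRRM2/shp16, NFE2L2 reached 33.1 ± 0.89 RPKM and overlapped TXNRD1 at 34.2 ± 0.26, and GCLC at 5.95 ± 0.17 RPKM overlapped GCLM at 5.65 ± 0.19.

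**Figure D1:**
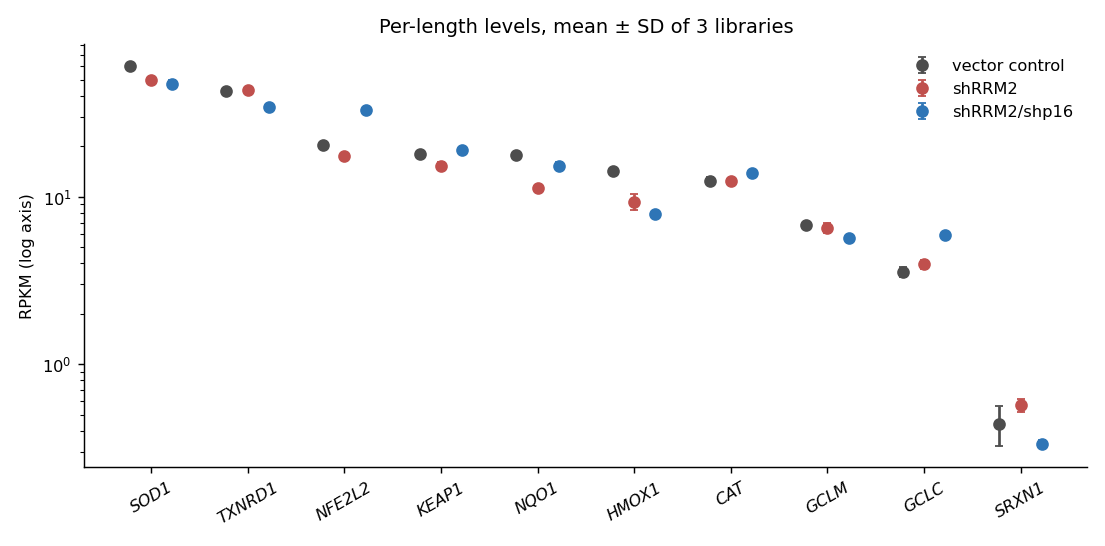
Per-length levels of the 10 genes (RPKM, log axis), ordered by the control mean; points are means and bars SD over 3 libraries per group. SOD1 leads in every group, NFE2L2 rises to the level of TXNRD1 in shRRM2/shp16, and GCLC and GCLM meet there.

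Across the 3 comparisons the 10 genes did not move as a block. In shRRM2 against control, 5 fell (NFE2L2, KEAP1, NQO1, HMOX1 and SOD1) and 1 rose (GCLC), with a median log2 fold change of -0.14 against 0.00 over all tested genes. Of all tested genes 31.8% were called lower and 29.0% higher at an adjusted p under 0.05 (edgeR quasi-likelihood test). In shRRM2/shp16 against shRRM2, 5 rose (NFE2L2, KEAP1, NQO1, GCLC and CAT) and 4 fell (HMOX1, GCLM, TXNRD1 and SRXN1), where 31.9% of all genes were called higher and 29.1% lower. In shRRM2/shp16 against control, 3 rose (NFE2L2, GCLC and CAT) and 5 fell (NQO1, HMOX1, GCLM, TXNRD1 and SOD1), where the figures for all genes were 30.0% and 32.4%. The CPM ranges of the groups did not overlap for 5, 9 and 9 of the 10 genes in these comparisons, against 63.6%, 64.7% and 66.2% of all tested genes. Each group enters 2 of the 3 comparisons, which are therefore not independent.

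**Figure D2:**
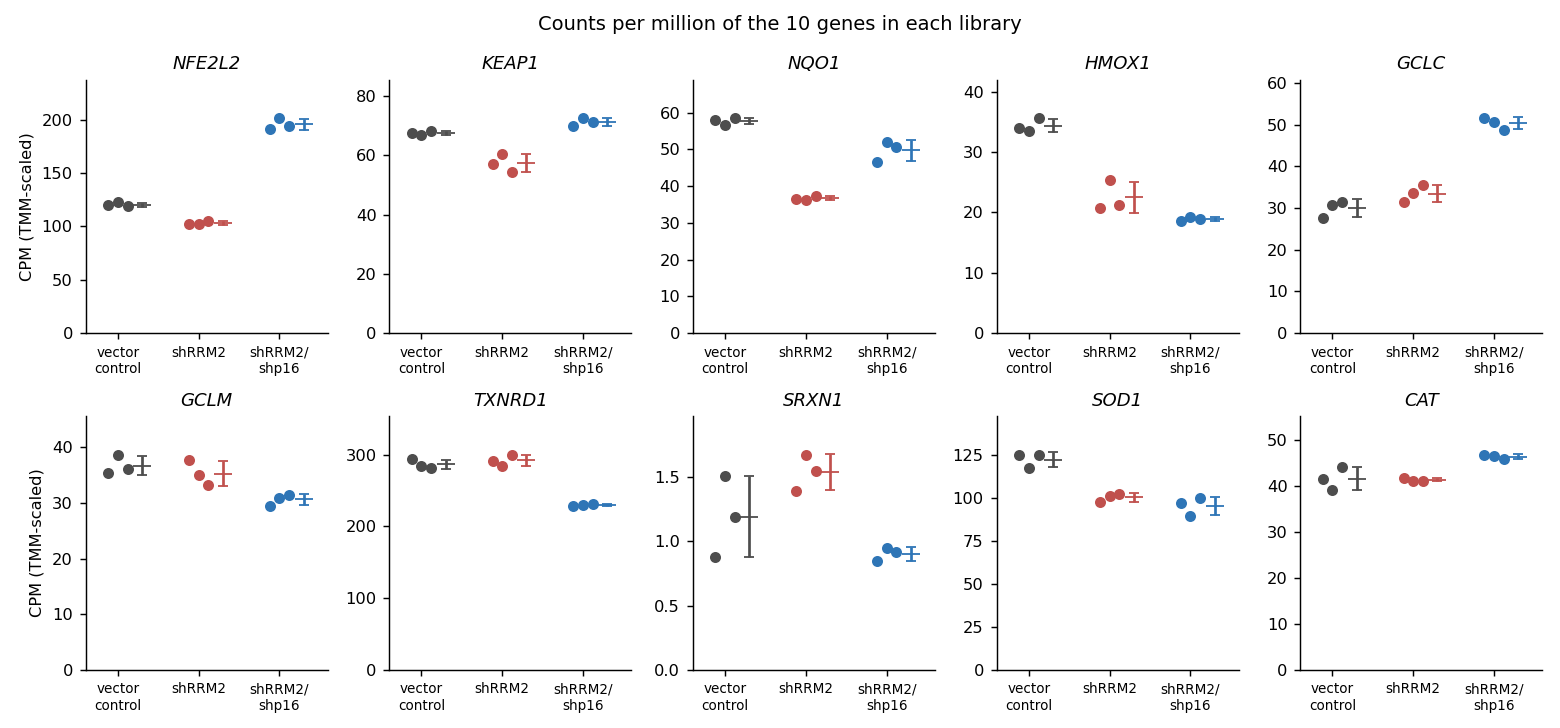
TMM-scaled CPM of each of the 10 genes; points are single libraries (a, b and c from left to right) and the bar beside them is the mean ± SD of 3 libraries. NFE2L2 and GCLC are highest in shRRM2/shp16, HMOX1 is lowest there, and NQO1 is lowest in shRRM2.

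NFE2L2 (ENSG00000116044; GRCh38 chromosome 2, 177227595 to 177392697, minus strand), which encodes NRF2 itself, was at 119.9, 122 and 119 CPM in control libraries a, b and c. It was at 102.5, 102.0 and 105.0 CPM in shRRM2 and at 191, 201 and 194 CPM in shRRM2/shp16. All 3 groups were separate, with shRRM2 lowest and shRRM2/shp16 highest. Its log2 fold change was -0.22 ± 0.04 (SE) in shRRM2 against control (edgeR adjusted p 8.0e-07), or 85.7% of the control level. In shRRM2/shp16 it rose by 0.92 ± 0.03 over shRRM2 (adjusted p 2.6e-26), to 189% of that level, the largest increase among the 10 genes. Against control the increase was 0.70 ± 0.03 (adjusted p 1.5e-22). In GENCODE release 29, 17.6% of the exon bases of NFE2L2 are shared with AC019080.1 on its strand, which itself had 323 counts over the 9 libraries.

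KEAP1 (ENSG00000079999; chromosome 19, 10486120 to 10503741, minus strand), which encodes the inhibitor of NRF2, fell with shRRM2 by about as much as NFE2L2 and rose less than it when the p16 hairpin was added. It was at 67.5, 67.0 and 68.3 CPM in control, 57.2, 60.5 and 54.5 in shRRM2, and 70.0, 72.5 and 71.3 in shRRM2/shp16. The shRRM2 libraries were the lowest, and the shRRM2/shp16 libraries were just above those of control. The log2 fold change was -0.24 ± 0.05 in shRRM2 against control (adjusted p 1.4e-05) and 0.31 ± 0.04 in shRRM2/shp16 against shRRM2 (adjusted p 5.6e-08). The difference of shRRM2/shp16 from control, 0.08 ± 0.04, did not pass the threshold (adjusted p 0.115). It passed when genes with fewer than 10 counts in any library were left out (adjusted p 0.0372, over a range of 0.0372 to 0.464 across the alternatives). The per-length ratio of KEAP1 to NFE2L2, chosen after its values were seen and given with no test, was 0.859 to 0.904 in control libraries and 0.815 to 0.930 in shRRM2. In the shRRM2/shp16 libraries it was 0.566 to 0.576.

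NQO1 (ENSG00000181019; chromosome 16, 69706996 to 69726951, minus strand) encodes a quinone reductase that is a standard readout of NRF2 activity. It was at 58.1, 56.7 and 58.4 CPM in control, 36.5, 36.3 and 37.3 in shRRM2, and 46.5, 52.0 and 50.5 in shRRM2/shp16. The 3 groups did not overlap, and the cells with both hairpins lay between the other groups. Its log2 fold change of -0.65 ± 0.05 (adjusted p 3.8e-15) was the largest decrease of the 10 genes in shRRM2 against control and left 63.6% of the control level. It rose by 0.44 ± 0.05 in shRRM2/shp16 against shRRM2 (adjusted p 6.0e-10). It stayed below control there, with -0.22 ± 0.05 (adjusted p 9.5e-05). An antisense gene, AC092115.2, covers 17.7% of its exon bases and had 60 counts in all 9 libraries together.

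HMOX1 (ENSG00000100292; chromosome 22, 35380361 to 35394214, plus strand) encodes the inducible haem oxygenase, which splits haem into biliverdin, iron and carbon monoxide. It was at 33.9, 33.5 and 35.6 CPM in control, 20.8, 25.3 and 21.3 in shRRM2, and 18.6, 19.2 and 18.9 in shRRM2/shp16. Control was highest, and the libraries of the other groups were close to each other apart from shRRM2 replicate b. The log2 fold change was -0.61 ± 0.07 in shRRM2 against control (adjusted p 8.0e-11). Where NQO1 rose with the added p16 hairpin, HMOX1 was lower again, by -0.25 ± 0.07 (adjusted p 0.00271). That call was lost without shRRM2 replicate b, with a fold change of -0.15 (adjusted p 0.0854, between 0.00114 and 0.0854 across alternatives). Against control the cells with both hairpins kept 55.2% of the level, a log2 fold change of -0.86 ± 0.07 (adjusted p 2.4e-15), the largest decrease of the 10 genes in that comparison.

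**Figure D3:**
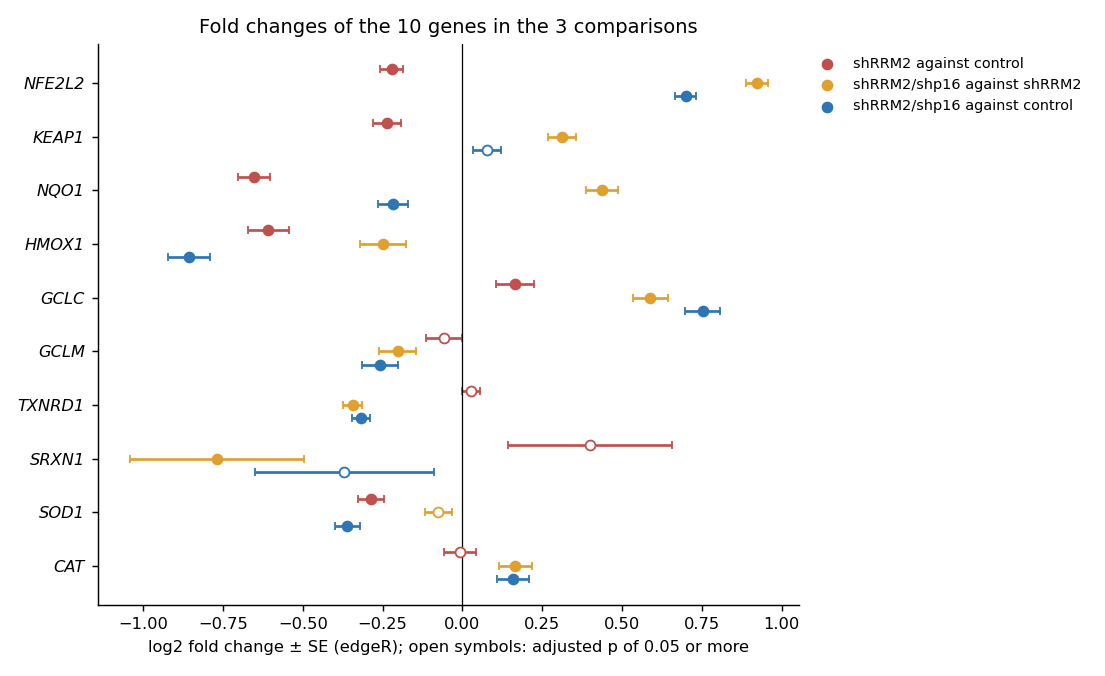
Log2 fold changes ± SE of the 10 genes in the 3 comparisons (edgeR); filled symbols have an adjusted p under 0.05. NFE2L2, KEAP1 and NQO1 are lower in shRRM2 than in control and higher in shRRM2/shp16 than in shRRM2, while HMOX1 is lower in each comparison.

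Glutamate-cysteine ligase, the first enzyme of glutathione synthesis, is built from a catalytic subunit, GCLC, and a modifier subunit, GCLM, that raises its activity. GCLC (ENSG00000001084; chromosome 6, 53497341 to 53616970, minus strand) was at 27.7, 30.9 and 31.6 CPM in control, 31.4, 33.5 and 35.5 in shRRM2, and 51.6, 50.7 and 48.8 in shRRM2/shp16. Control and shRRM2 overlapped, and the cells with both hairpins were well above either. The small rise in shRRM2, 0.17 ± 0.06 (adjusted p 0.0161), was lost without control replicate a (0.10, adjusted p 0.169), without shRRM2 replicate c (0.13, adjusted p 0.0977), with DESeq2 (0.15, adjusted p 0.118) and with no low-count filter (0.12, adjusted p 0.118), out of a range of 0.00390 to 0.169 over the alternatives. The rise of shRRM2/shp16 was 0.59 ± 0.06 over shRRM2 (adjusted p 1.6e-12) and 0.75 ± 0.06 over control (adjusted p 5.2e-16).

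GCLM (ENSG00000023909; chromosome 1, 93885205 to 93909456, minus strand) went the other way. It was at 35.5, 38.6 and 36.1 CPM in control, 37.7, 35.0 and 33.2 in shRRM2, and 29.5, 30.9 and 31.5 in shRRM2/shp16, where all libraries were below those of the other groups. No difference was called between shRRM2 and control (-0.06 ± 0.06, adjusted p 0.397). In shRRM2/shp16 the level fell by 0.20 on the log2 scale against shRRM2 (SE 0.06, adjusted p 0.00269) and by 0.26 against control (SE 0.06, adjusted p 1.1e-04). The per-length ratio of GCLC to GCLM, chosen after its values were seen and not tested, was 0.50 to 0.56 in control libraries, 0.533 to 0.684 in shRRM2 and 0.991 to 1.12 in shRRM2/shp16.

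TXNRD1 (ENSG00000198431; chromosome 12, 104215779 to 104350305, plus strand), the cytosolic thioredoxin reductase, was at 294, 284 and 281 CPM in control and 292, 285 and 299.5 in shRRM2. It was at 228, 230.0 and 232 CPM in shRRM2/shp16, below every other library. No difference was called between shRRM2 and control (0.03 ± 0.03, adjusted p 0.440). The log2 fold change of shRRM2/shp16 was -0.34 ± 0.03 against shRRM2 (adjusted p 1.1e-13) and -0.32 ± 0.03 against control (adjusted p 8.4e-13). KEAP1, GCLM and TXNRD1, the genes with a core match printed above, thus did not share a direction: in shRRM2/shp16 against shRRM2 the first rose and the others fell.

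SRXN1 (ENSG00000271303; chromosome 20, 646615 to 653370, minus strand) encodes sulfiredoxin, which reactivates overoxidised peroxiredoxins. It was counted on only 16 to 29 reads per library. AL121758.1, on the same strand, shares 85.0% of its exon bases and has 0 counts in all libraries. How many reads of the locus were set aside as ambiguous was not tested. SRXN1 was at 0.880, 1.51 and 1.19 CPM in control, 1.40, 1.67 and 1.55 in shRRM2, and 0.845, 0.946 and 0.914 in shRRM2/shp16. The last group was below shRRM2 and overlapped control. The log2 fold change was -0.77 ± 0.27 in shRRM2/shp16 against shRRM2 (adjusted p 0.0136), and DESeq2 did not call it (adjusted p 0.0979; 0.00666 to 0.0979 over the alternatives). Against control it was 0.40 ± 0.26 in shRRM2 (adjusted p 0.179) and -0.37 ± 0.28 in shRRM2/shp16 (adjusted p 0.256), neither past the threshold. For SRXN1 the authors' deposited table lists -0.32 on the log2 scale for shRRM2/shp16 against shRRM2 (q-value 4.4e-04).

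SOD1 (ENSG00000142168; chromosome 21, 31659622 to 31668931, plus strand), the cytosolic copper-zinc superoxide dismutase, was at 124.5, 117 and 125 CPM in control. It was at 97.4, 100.9 and 102.0 CPM in shRRM2 and at 96.7, 89.2 and 99.5 in shRRM2/shp16. Control was above both other groups, which overlapped. The log2 fold change was -0.29 ± 0.04 in shRRM2 (adjusted p 3.8e-08) and -0.36 ± 0.04 in shRRM2/shp16 (adjusted p 8.0e-11), both against control. Between the groups with the RRM2 hairpin it was -0.08 ± 0.04 (adjusted p 0.111).

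CAT (ENSG00000121691; chromosome 11, 34438925 to 34472062, plus strand) encodes catalase, which breaks down hydrogen peroxide in peroxisomes. It was at 41.5, 39.2 and 44.2 CPM in control, 41.8, 41.1 and 41.2 in shRRM2, and 46.8, 46.6 and 45.9 in shRRM2/shp16. Control and shRRM2 overlapped (-0.01 ± 0.05, adjusted p 0.898), and shRRM2/shp16 was above both. It rose by 0.17 ± 0.05 over shRRM2 (adjusted p 0.00441) and by 0.16 ± 0.05 over control (adjusted p 0.00541). DESeq2 did not call the difference from control (0.14, adjusted p 0.0589; 0.00144 to 0.0589 over the alternatives).

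Around these genes, 102 further genes of the pathway in 6 lists were followed, of which 95 passed the count filter. Their counts stand against the shares of all tested genes called, which were 29.0% higher and 31.8% lower in shRRM2 against control. For shRRM2/shp16 those shares were 31.9% and 29.1% against shRRM2, and 30.0% and 32.4% against control. In this order the medians over all genes were 0.00, 0.01 and 0.02. Among 13 genes that control NRF2, pair with it or are related to it, 9 rose and 4 fell in shRRM2 against control (median log2 fold change 0.19, against 0.00 over all genes, of which 29.0% were called higher and 31.8% lower). The list mixes partners of NRF2, such as the small MAF proteins, with parts of the ligase that degrades it, such as CUL3. Its counts and medians therefore give no direction for NRF2. In shRRM2/shp16 against shRRM2, 6 rose and 1 fell, with a median of 0.09 against 0.01, and against control 8 rose and 3 fell (median 0.16). MAFF, a small MAF partner, rose from 33.4 ± 2.28 CPM in control to 44.0 ± 0.99 in shRRM2 and 80.7 ± 2.72 in shRRM2/shp16, with steps of 0.39 and 0.87 (adjusted p 2.6e-08 and 3.1e-20). The related factor NFE2L3 rose from 25.3 ± 0.73 to 41.1 ± 1.96 CPM with shRRM2 (0.69, adjusted p 5.9e-14). It fell to 16.3 ± 0.39 CPM when the p16 hairpin was added (-1.33, adjusted p 1.5e-22). PGAM5, a mitochondrial phosphatase that binds KEAP1, fell from 40.8 ± 3.46 to 29.0 ± 0.52 CPM with shRRM2 (-0.49, adjusted p 1.9e-09).

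Of 27 other NRF2 target genes 25 were tested, and AKR1B10 and GPX2 were too low. In shRRM2 against control 16 fell and 5 rose (median -0.30, against 0.00 over all genes), where 31.8% of all genes were called lower and 29.0% higher. In shRRM2/shp16 against shRRM2, 11 rose and 8 fell (median 0.09), and against control 8 rose and 12 fell (median -0.11, against 0.02 over all genes). The shares of all genes called higher and lower were 31.9% and 29.1% against shRRM2, and 30.0% and 32.4% against control. AKR1C1, an aldo-keto reductase, fell from 4.46 ± 0.44 to 2.14 ± 0.31 CPM with shRRM2 (-1.05, adjusted p 1.9e-07). It rose to 27.5 ± 0.53 CPM with both hairpins, 3.68 above shRRM2 on the log2 scale (adjusted p 8.9e-30). AKR1C1 has close paralogs, so the share of reads given to it is uncertain. CBR3, a carbonyl reductase, fell from 12.2 ± 0.44 CPM in control to 4.74 ± 0.48 and 3.54 ± 0.30 (steps of -1.36 and -0.42, adjusted p 2.3e-14 and 0.00931). AKR1B1, aldose reductase, rose from 77.4 ± 4.45 to 208 ± 5.23 and 270.4 ± 6.33 CPM (steps of 1.42 and 0.38, adjusted p 8.4e-32 and 1.7e-13). FTL, the ferritin light chain, rose from 1353 ± 36.9 to 1842 ± 63.5 CPM with shRRM2 and fell to 1249 ± 22.8 CPM with both hairpins (0.45 and -0.56, adjusted p 4.9e-19 and 1.1e-22), and its processed pseudogenes may take up some of its reads.

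Among 23 genes of glutathione use, 10 rose and 9 fell in shRRM2 against control, and 9 rose and 10 fell in shRRM2/shp16 against shRRM2 (medians -0.05 and 0.11, against 0.00 and 0.01 over all genes). Of all genes, 29.0% and 31.9% were called higher in these comparisons and 31.8% and 29.1% lower. CHAC1, which degrades glutathione, rose from 33.1 ± 2.97 to 73.4 ± 3.64 CPM with shRRM2 and fell to 47.6 ± 3.82 CPM with both hairpins (1.15 and -0.62, adjusted p 1.1e-21 and 9.3e-14). GLRX2, a mitochondrial glutaredoxin, fell from 11.8 ± 0.77 to 8.04 ± 0.78 CPM and rose to 11.8 ± 0.22 CPM (-0.55 and 0.56, adjusted p 6.0e-06 and 3.3e-06). GPX7 had the highest and GPX3 the lowest log2 fold change of the list in shRRM2/shp16 against shRRM2, at 0.95 and -0.87 (adjusted p 1.1e-10 and 4.9e-06), both glutathione peroxidase family members. Against control, 12 rose and 8 fell with both hairpins (median 0.12), where 30.0% of all genes were called higher and 32.4% lower. The ends of that list were GGT5, a glutamyltransferase (1.21, adjusted p 6.2e-11), and GLO1, glyoxalase I (-0.63, adjusted p 2.3e-17). GGT5 and GLO1 already differed from control in shRRM2 (0.951 and -0.405, adjusted p 1.1e-07 and 2.4e-11).

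Of 15 further genes of the thioredoxin and peroxiredoxin system, 6 rose and 4 fell in shRRM2 against control and 5 rose and 7 fell in shRRM2/shp16 against shRRM2 (medians -0.03 and -0.01). Of all genes, 29.0% were called higher and 31.8% lower in the first comparison, and 31.9% and 29.1% in the second. Against control, 5 rose and 6 fell with both hairpins (median -0.05), where 30.0% of all genes were called higher and 32.4% lower. PRDX6, a peroxiredoxin that uses glutathione, rose from 243 ± 4.91 to 387 ± 3.42 CPM and fell to 190.2 ± 5.05 CPM (0.67 and -1.03, adjusted p 9.0e-24 and 1.9e-30). TXNIP, the inhibitor of thioredoxin, fell at both steps, from 304.5 ± 3.49 to 222 ± 3.17 and 179.8 ± 2.51 CPM (-0.46 and -0.30, adjusted p 9.6e-18 and 8.4e-12). MSRB3, a methionine sulfoxide reductase, fell from 148.5 ± 3.65 to 72.1 ± 3.47 CPM when the p16 hairpin was added (-1.04, adjusted p 2.2e-26), and MSRB2 rose (0.53, adjusted p 1.6e-07). SESN1, a sestrin, was 0.505 above control in shRRM2 (adjusted p 5.4e-07) and 0.49 above it with both hairpins (adjusted p 4.7e-07). No difference was called between these groups (-0.012, adjusted p 0.903).

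Of 11 genes for superoxide handling and its sources 6 were tested, and NOX1, NOX5, CYBB, DUOX1 and DUOX2 were too low. In shRRM2 against control 3 rose and the other 3 were not called, and in shRRM2/shp16 against shRRM2 3 rose and 3 fell (medians 0.37 and -0.06), against 29.0% and 31.9% of all genes called higher and 31.8% and 29.1% lower. Against control, 3 rose and 2 fell with both hairpins (median 0.18), where 30.0% of all genes were called higher and 32.4% lower. SOD2, the mitochondrial manganese superoxide dismutase and a known NF-kB target, rose from 163 ± 3.18 to 324 ± 9.04 and 1196 ± 17.7 CPM. The steps of SOD2 were 0.996 ± 0.03 and 1.88 ± 0.03 (adjusted p 1.1e-29 and 1.7e-41), while SOD1 fell against control in both groups. SOD3, the secreted form, fell from 15.3 ± 0.46 in shRRM2 to 8.19 ± 0.58 CPM with both hairpins (-0.90, adjusted p 5.3e-12).

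Of 13 genes of haem and iron handling, 5 rose and 3 fell in shRRM2 against control, and 8 rose and 3 fell in shRRM2/shp16 against shRRM2 (medians 0.05 and 0.31). The shares over all genes were 29.0% higher and 31.8% lower in the first comparison, and 31.9% and 29.1% in the second. Against control, 6 rose and 4 fell with both hairpins (median 0.12), where 30.0% of all genes were called higher and 32.4% lower. TFRC, the transferrin receptor, fell from 534.5 ± 10.5 to 299 ± 5.16 CPM and rose to 431 ± 5.25 CPM (-0.84 and 0.53, adjusted p 4.2e-28 and 6.7e-21). The iron exporter SLC40A1 rose at both steps (0.67 and 0.37, adjusted p 9.5e-07 and 8.0e-04). So did the iron importer SLC11A2 (0.66 and 0.55, adjusted p 1.0e-15 and 6.5e-15). BLVRA, which reduces the biliverdin that haem oxygenase makes, fell alongside HMOX1, from 28.7 ± 0.95 to 24.1 ± 0.81 and 16.6 ± 0.54 CPM (-0.25 and -0.54, adjusted p 7.6e-04 and 4.8e-09). STEAP3, an endosomal iron reductase, fell when the p16 hairpin was added (-0.68, adjusted p 6.2e-15).

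**Figure D4:**
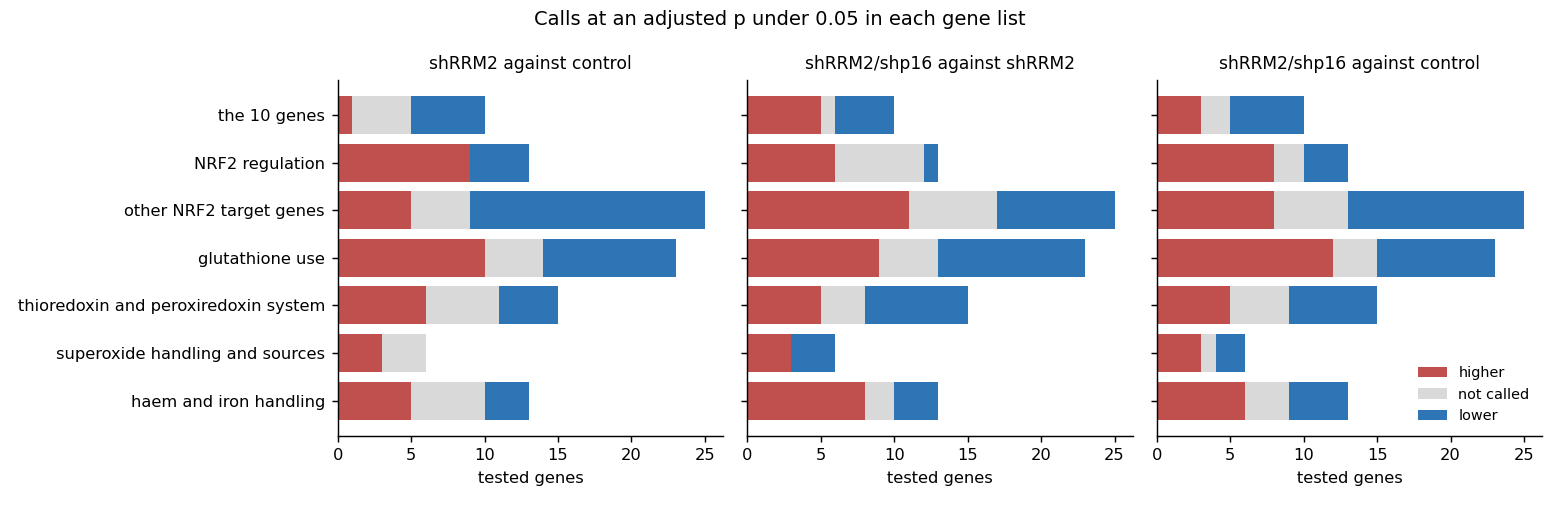
Number of tested genes called higher, called lower or not called (edgeR, adjusted p under 0.05) among the 10 genes and in the 6 pathway lists, for the 3 comparisons. Of the other NRF2 target genes 16 of 25 were called lower in shRRM2 against control (31.8% of all genes), and 11 higher and 8 lower in shRRM2/shp16 against shRRM2 (31.9% and 29.1% of all genes).

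The genes most like 3 of the 10 in pattern were sought among 11289 well-counted genes, by the root mean square difference of log2 CPM over the 9 libraries after centring each gene on its mean. SEMA4C, SLC44A1 and CLDND1 were nearest to NFE2L2, at 0.044, 0.052 and 0.054 log2 units. SUMO2, SF3B3 and PRKD3 were nearest to NQO1, at 0.048, 0.048 and 0.049, and FZD1, RIN1 and SF3A2 to HMOX1, at 0.053, 0.067 and 0.067. None of these 9 is on the pathway lists, which hold only 102 genes where 11289 were compared, so little can be read from their absence.

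Of the 10 genes, 5 are marked significant between shRRM2/shp16 and shRRM2 in the authors' deposited table: NFE2L2, NQO1, GCLC, HMOX1 and SRXN1. For NFE2L2 the authors' deposited table gives 0.91 on the log2 scale, for GCLC 0.60 and for NQO1 0.47 (q-value 4.4e-04 for each), and for HMOX1 -0.30 (q-value 0.00420). For KEAP1, CAT, TXNRD1 and GCLM, which were called from the counts, the authors' deposited table has q-values of 0.115, 0.254, 0.255 and 0.685, with the same signs as the counts. The deposited RPKM column of shRRM2 replicate c does not follow from its count file: NFE2L2 and NQO1 are 1.25 and 1.24 times the value from the counts there, HMOX1 0.732 times and SRXN1 0.340 times. Which of the files holds the library labelled shRRM2 replicate c is not known, and all shRRM2 values given here use its count file. Without that library 5, 9 and 8 of the 10 genes were called in the 3 comparisons, against 6, 9 and 8 with it, and GCLC in shRRM2 against control was the call lost.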

How the data were processed

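RNA was sequenced from 9 IMR90 libraries. For each library the authors deposited raw counts by Ensembl gene, with the closing tallies that HTSeq writes. TopHat2 2.0.9, Cufflinks 2.0.2, Cuffdiff and GRCh38 are named in the submitters' processing notes. The strand setting is not given in the sources used here. A deposited table holds log2 RPKM values per library (log2(x + 1), where x is RPKM divided by 1000, found from the counts), and, per the file headers, the authors' log2 fold change, p-value and q-value comparing shRRM2/shp16 with shRRM2. The header does not state the direction, which was set by the counts: of 4563 genes called in both, 4551 have the sign of shRRM2/shp16 minus shRRM2. Its test statistic, a score per the file headers, was not used. Gene lengths were calculated back from that table. There were 0 columns that matched no sample.

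Tallies that name no gene entered neither library sizes nor tests: reads in no annotated gene were 17.6% to 28.8% and ambiguous reads 3.74% to 6.02% of uniquely aligned reads, and alignments that were not unique 40.3% to 44.9% of all tallied entries. Counts were tested with edgeR 4.0.16 (R 4.3.3): filterByExpr, TMM, 1 quasi-likelihood fit of 9 libraries with 6 residual degrees of freedom, two-sided, Benjamini-Hochberg over 16561 genes, threshold 0.05. The SE is the size of the log2 fold change divided by the square root of F. The code was tested on simulated data. Alternatives were RLE factors, DESeq2 1.42.0, other filters, 6 libraries, a replicate block and leaving out each library. The 10 genes and the lists were chosen with earlier results of these data known. Named besides the 10 genes are, per list and comparison, the genes with the highest and lowest called fold change at a mean log2 CPM of at least 2. Positions and overlaps are from GENCODE release 29 on GRCh38.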

Additional observations from a re-analysis of the deposited data

How the results depend on the processing

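Over all alternatives the number of the 10 genes called was 5 to 6 in shRRM2 against control, 8 to 9 in shRRM2/shp16 against shRRM2 and 7 to 9 in shRRM2/shp16 against control. In the reported fit, 29.0% of all tested genes were called higher and 31.8% lower in the first comparison. The shares were 31.9% and 29.1% in the second, and 30.0% and 32.4% in the third. Of 450 recomputed fold changes of the 10 genes, 435 kept their direction and their side of the threshold, 7 lost a call and 1 gained one. The other 7 changed sign, none of them called: TXNRD1 in shRRM2 against control with no low-count filter (-0.014, where it was 0.03), and CAT in the same comparison with RLE size factors (0.004), with at least 10 counts in every library (0.023), with only the 6 libraries compared (0.004), and over libraries left out in turn (-0.045 to 0.023). The cause was not tested. All 525 recomputed fold changes of named pathway genes kept direction and call. With the replicate letter as a block, 6, 9 and 8 of the 10 genes were called, as without it. Letters are not shown to mark shared cultures, and the deviations of same-lettered libraries correlated at -0.10 to 0.17. Against control, GCLC in shRRM2 rests on single libraries, and SRXN1 is limited by its 16 to 29 reads.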
